A study of Homo sapiens with 6 samples.

Results

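The lysyl oxidases LOX, LOXL1, LOXL2, LOXL3 and LOXL4 and the transglutaminase TGM2 are enzymes that crosslink the extracellular matrix, and their transcripts were followed in HFL-1 cells, a fibroblast line from human fetal lung. All probe sets with exactly 1 gene symbol among these 6 genes were taken, which gave 19 of the 39341 probe sets of the array and 6 of the 15277 genes with a probe set of a single symbol. The cells had been infected with a lentivirus made to overexpress HYAL1, a hyaluronidase, or with the control vector CON335, both in the presence of polybrene. Total RNA from 3 samples of each was turned into biotin-labelled RNA by in vitro transcription and hybridised to PrimeView arrays. HFL-1 is a single line, the infection was transient, and the time of harvest was not found in the sources used here. The titles call the replicates biological, but nothing used here says whether they came from separate cultures, so p-values measure only the spread between these samples, which may be technical. The values are log2 levels made by RMA (background correction, quantile normalization and a summary of the probes of each set), and a difference is always the mean of the HYAL1-labelled arrays minus that of the control-labelled arrays on the log2 scale.

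The labels were first set against HYAL1 itself. The probe set taken for it has no symbol in the annotation and was recognised by its values in the study's supplementary table. Other probe sets of HYAL1 were not sought. It read 4.81, 4.82 and 4.67 in the HYAL1-labelled arrays, against 7.48, 7.49 and 7.46 in the control-labelled arrays. HYAL1 was thus lower in the arrays labelled as overexpressing it, where it read below the background, with a difference of -2.71 (adjusted p = 7.78e-07 from limma), and the supplementary table lists the same arrays under the opposite group headings. Every direction below is therefore given by array label, and which group carried the HYAL1 virus is not settled. All 12 fibroblast markers examined lay above the median of the array's background probe sets (6.69 to 6.90) on all 6 arrays, which was the case for 1 of 8 endothelial markers (TEK), 1 of 7 leukocyte markers (CD68), 5 of 8 smooth muscle markers and 4 of 9 epithelial markers (KRT18, KRT19, CLDN4 and MUC1).

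Lysyl oxidases are copper-dependent amine oxidases that are secreted by fibroblasts. They turn lysine and hydroxylysine side chains of collagen and elastin into aldehydes, which then react with neighbouring chains to form covalent crosslinks that stiffen and stabilise the fibres. TGM2 reaches the same end by another chemistry, since it uses calcium to join glutamine to lysine in proteins such as fibronectin. In the lung these enzymes are known for their part in elastic recoil and, in fibrosis, for the stiffness of scar tissue.

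The sequence upstream of LOX, LOXL4 and LOXL1 is shown because LOX and LOXL4 lay lower in the HYAL1-labelled arrays and LOXL1 lay higher. The set of RefSeq upstream sequences used here (GRCh38.p14) covered 4 of the 6 genes and had no entry for LOXL2 or TGM2. It listed 3 transcription starts for LOX, of which only the first was searched. Each sequence is the 250 bases before the first listed transcription start, 5′ to 3′ on the gene's own strand, with ACGTG (the core bound by hypoxia-inducible factors) and GGGCGG (the GC box) in capitals on either strand. LOX lies on the minus strand at chr5:122078260-122078509, LOXL4 on the minus strand at chr10:98268195-98268444 and LOXL1 on the plus strand at chr15:73926212-73926461.
LOX: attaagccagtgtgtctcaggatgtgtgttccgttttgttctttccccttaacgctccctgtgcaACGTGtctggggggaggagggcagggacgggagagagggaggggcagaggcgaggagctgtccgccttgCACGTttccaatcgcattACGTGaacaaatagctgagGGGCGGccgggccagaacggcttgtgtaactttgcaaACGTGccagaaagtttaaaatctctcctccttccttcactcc
LOXL4: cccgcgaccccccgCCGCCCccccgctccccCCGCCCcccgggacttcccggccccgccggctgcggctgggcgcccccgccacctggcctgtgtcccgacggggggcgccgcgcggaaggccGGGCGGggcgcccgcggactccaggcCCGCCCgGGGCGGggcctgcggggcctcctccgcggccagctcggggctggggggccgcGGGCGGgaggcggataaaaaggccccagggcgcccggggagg
LOXL1: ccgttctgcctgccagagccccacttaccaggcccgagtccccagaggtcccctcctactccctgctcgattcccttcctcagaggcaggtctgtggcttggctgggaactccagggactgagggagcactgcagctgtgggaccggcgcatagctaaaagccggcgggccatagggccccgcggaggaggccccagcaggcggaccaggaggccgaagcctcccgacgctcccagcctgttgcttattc

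The LOX window held 4 matches to ACGTG, which began 185, 116, 98 and 42 bases before the start, the second of them on the opposite strand. At least 1 match was found in 18.7% of the 27305 windows of the same length, and 4 or more in 0.714%. None of the 4 formed the palindrome CACGTG, which contains the shorter motif and occurred in 6.49% of windows. LOX also held 1 GC box, a motif found in 42.3% of windows, while LOXL4 held 6 (4 or more in 7.82% of windows) and was 86.4% G and C, against 55.2% for LOX and 66.8% for LOXL1. The LOXL1 window held none of the motifs searched, which also included GCGTG (31.9% of windows), TGANTCA, the AP-1 site (6.60%), and TATAAA (11.1%), and none of these 3 was found in LOX or LOXL4. The LOXL3 window, which is not printed, held none of them either. A match is a description of these letters and was not tested as a binding site.

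Of the 6 enzymes, LOX, LOXL2 and TGM2 were lower in the HYAL1-labelled arrays by 1.15- to 1.17-fold and passed the test. These 3 of 6 stand against 1.21% of all 15277 genes called lower by the same rule, an adjusted p under 0.05 from limma over all genes. None of the 6 was called higher, against 0.445% of all genes. The 6 genes were chosen with earlier results of these data known, so these counts are descriptions. LOXL1 stood higher in the HYAL1-labelled arrays and LOXL4 lower without passing, and LOXL3 did not separate the groups. In 5 of the 6 genes the groups did not overlap, which held for 24.4% of all genes. The median difference of the 6 genes was -0.19 and that of all genes 0.01, and the median size without regard to sign was 0.19 and 0.05.

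**Figure D1:**
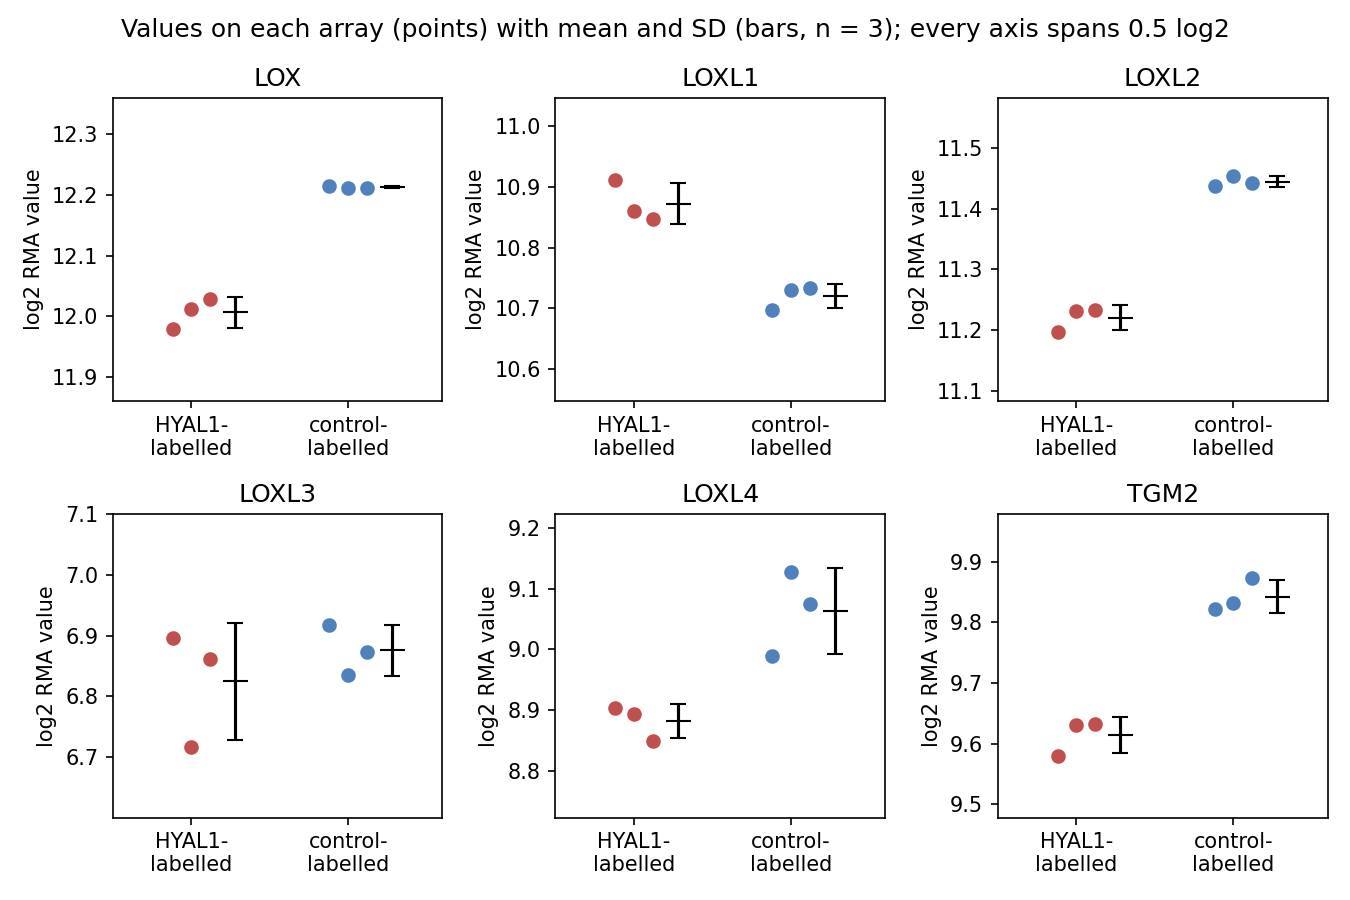
Log2 value of each gene's probe set of highest mean on each of the 6 arrays (points), with HYAL1-labelled arrays at the left and control-labelled arrays at the right of each panel, and the mean with SD as a bar (n = 3). Every vertical axis spans 0.5 log2 units, and the groups are apart for LOX, LOXL1, LOXL2, LOXL4 and TGM2 and overlap for LOXL3.

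LOX (gene ID 4015), the founding member of the family, which acts on fibrillar collagen and elastin, read 11.98, 12.01 and 12.03 in the HYAL1-labelled arrays, against 12.22, 12.21 and 12.21 in the control-labelled arrays. Every HYAL1-labelled array lay below every control-labelled array, and the control-labelled arrays were almost identical to one another. The HYAL1-labelled arrays averaged 12.01 ± 0.0257 and the control-labelled arrays 12.21 ± 0.00163 (SD, n = 3 each). The difference was -0.21 (standard error 0.0300, 95% interval -0.28 to -0.14, adjusted p = 0.0250 from limma), or 1.15-fold lower. LOX ranked between the percentiles 98.3 and 98.7 of its arrays, so this was a strongly read transcript.

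LOX was read by 5 further probe sets, and all 6 had non-overlapping groups with lower values in the HYAL1-labelled arrays. The share of all probe sets without overlap was not computed, and among all genes it was 24.4% in either direction. Among all probe sets, where 1.08% were called lower, 4 of the 6 LOX probe sets were called. The size differed between them, with differences that ran from -0.13 (adjusted p = 0.118 from limma) at the dimmest to -0.33 (adjusted p = 0.0189), where the HYAL1-labelled arrays read 10.00, 10.09 and 10.10 and the control-labelled arrays 10.42, 10.36 and 10.41. The probe set at -0.33 moved by 0.12 more than the brightest one, a gap without overlap between the groups (two-sided exact permutation p = 0.10, below which a design of 3 against 3 cannot go). Probe sets of 1 gene share its RNA and are not replicates.

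LOXL2 (gene ID 4017), which is known for crosslinking type IV collagen of basement membranes, read 11.20, 11.23 and 11.23 in the HYAL1-labelled arrays, against 11.44, 11.45 and 11.44 in the control-labelled arrays. The groups did not overlap. The HYAL1-labelled arrays averaged 11.22 ± 0.0205 and the control-labelled arrays 11.44 ± 0.00889 (SD, n = 3 each), a difference of -0.22 (standard error 0.0295, 95% interval -0.29 to -0.15, adjusted p = 0.0213 from limma), or 1.17-fold lower. It was the 75th gene of 15277 in the order of p-values.

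The 4 probe sets of LOXL2 fell into 2 pairs. The brightest and the next, with a difference of -0.19 (adjusted p = 0.0625 from limma), both had every HYAL1-labelled array below every control-labelled array. The other pair, which the annotation ties to a single sequence record that differs from those of the first pair, read 9.04, 9.12 and 9.14 in the HYAL1-labelled arrays against 9.09, 9.13 and 9.21 in the control-labelled arrays, and 8.34, 8.30 and 8.32 in the HYAL1-labelled arrays against 8.25, 8.29 and 8.36 in the control-labelled arrays. Their differences were -0.04 (95% interval -0.15 to 0.07) and 0.02 (-0.07 to 0.11), and in both the groups overlapped. The brightest probe set moved by 0.18 and 0.24 more than these (two-sided exact permutation p = 0.10 each, with no overlap). Averaged over its 4 probe sets LOXL2 no longer passed, at a difference of -0.11 (adjusted p = 0.137 from limma). Which part of the transcript each probe set reads was not examined, as no genome or probe sequence was used.

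**Figure D2:**
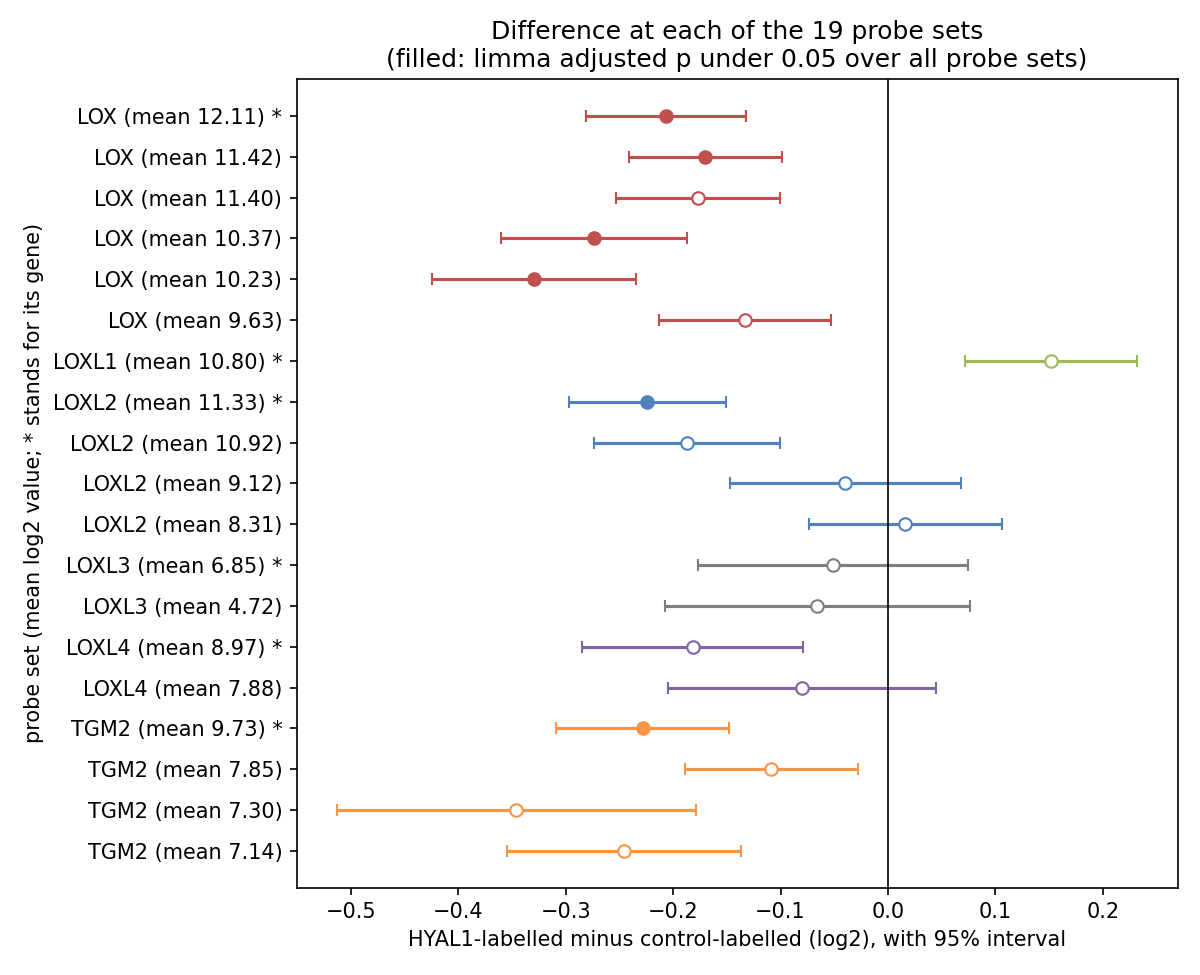
Difference of HYAL1-labelled minus control-labelled arrays on the log2 scale at each of the 19 probe sets with its 95% interval (bars, limma over all probe sets, 3 arrays per group), ordered by gene and then by mean level. Filled points passed at an adjusted p under 0.05 and asterisks mark the probe set that stands for its gene; the 6 LOX and 4 TGM2 probe sets lie below 0, LOXL1 lies above it, and the LOXL2 probe sets split.

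LOXL4 (gene ID 84171), which like LOXL2 and LOXL3 carries scavenger receptor domains in front of the oxidase, read 8.90, 8.89 and 8.85 in the HYAL1-labelled arrays, against 8.99, 9.13 and 9.07 in the control-labelled arrays. The groups did not overlap, but the control-labelled arrays spread more widely than for LOX or LOXL2. The difference of -0.18 (standard error 0.0429, 95% interval -0.28 to -0.08, adjusted p = 0.0947 from limma) did not pass. Its dimmer probe set stood at -0.08 (95% interval -0.20 to 0.04), with overlapping groups.

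LOXL1 (gene ID 4016), the family member tied to elastic fibre formation, had a single probe set and ran the other way. It read 10.91, 10.86 and 10.85 in the HYAL1-labelled arrays, against 10.70, 10.73 and 10.73 in the control-labelled arrays, so every HYAL1-labelled array lay above every control-labelled array. The difference was 0.15 (standard error 0.0327, 95% interval 0.08 to 0.23, adjusted p = 0.0729 from limma), which did not pass. The difference between LOX and LOXL1 within each array changed by -0.36 between the groups, and those between LOXL1 and each of LOXL2, LOXL4 and TGM2 by 0.38, 0.33 and 0.38. The arrays of the 2 labels were apart in 8 of the 15 pairs compared, these 4 among them (two-sided exact permutation p = 0.10, so that no pair can pass after adjustment). The other 4 were LOXL1 minus LOXL3 (0.20), LOX minus LOXL3 (-0.16), LOXL2 minus LOXL3 (-0.17) and LOX minus LOXL2. The pairs share genes, most of which were apart on their own, and the share among other gene pairs was not computed. The count of 8 of 15 is therefore a description only. The pair of LOX and LOXL2 changed by 0.02, that of LOX and TGM2 by 0.02 and that of LOXL2 and TGM2 by 0.00, of which the last pair and that of LOX and TGM2 had overlapping groups.

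LOXL3 (gene ID 84695), which has been linked to collagen crosslinking in the spine and palate, was read near the background. Its values were 6.90, 6.72 and 6.86 in the HYAL1-labelled arrays, against 6.92, 6.84 and 6.87 in the control-labelled arrays. The groups overlapped, and the brighter probe set lay above the background median on 4 of 6 arrays and the dimmer one on 0. The difference was -0.05 with a 95% interval of -0.18 to 0.07 (adjusted p = 0.667 from limma).

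TGM2 (gene ID 7052), the widely expressed transglutaminase that also binds fibronectin and integrins at the cell surface, read 9.58, 9.63 and 9.63 in the HYAL1-labelled arrays, against 9.82, 9.83 and 9.87 in the control-labelled arrays. The groups did not overlap. The HYAL1-labelled arrays averaged 9.61 ± 0.0301 and the control-labelled arrays 9.84 ± 0.0269 (SD, n = 3 each), and the difference of -0.23 (standard error 0.0328, 95% interval -0.31 to -0.15, adjusted p = 0.0247 from limma) was 1.17-fold. All 4 probe sets of TGM2 were lower in every HYAL1-labelled array than in any control-labelled array. Groups were apart in 24.4% of all genes, in either direction, and the share over probe sets was not computed. The differences of the 4 probe sets ran from -0.11 to -0.35, and the 3 dimmer ones did not pass among all probe sets (adjusted p of 0.0562 to 0.178 from limma). The widest, at -0.35, read 7.16, 7.03 and 7.20 in the HYAL1-labelled arrays against 7.36, 7.45 and 7.61 in the control-labelled arrays, close to the background.

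The calls rest on all 6 arrays. With any 1 array left out, none of the 6 genes passed, although the differences of LOX stayed between -0.22 and -0.19, of LOXL2 between -0.23 and -0.21 and of TGM2 between -0.24 and -0.21, and the adjusted p of these 3 genes lay between 0.0674 and 0.124 from limma. When the prior variance was let vary with expression level (trend), 5 of the 6 genes passed, LOXL1 (adjusted p = 0.00120) and LOXL4 (0.00618) included, against 6.70% of all genes.

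**Figure D3:**
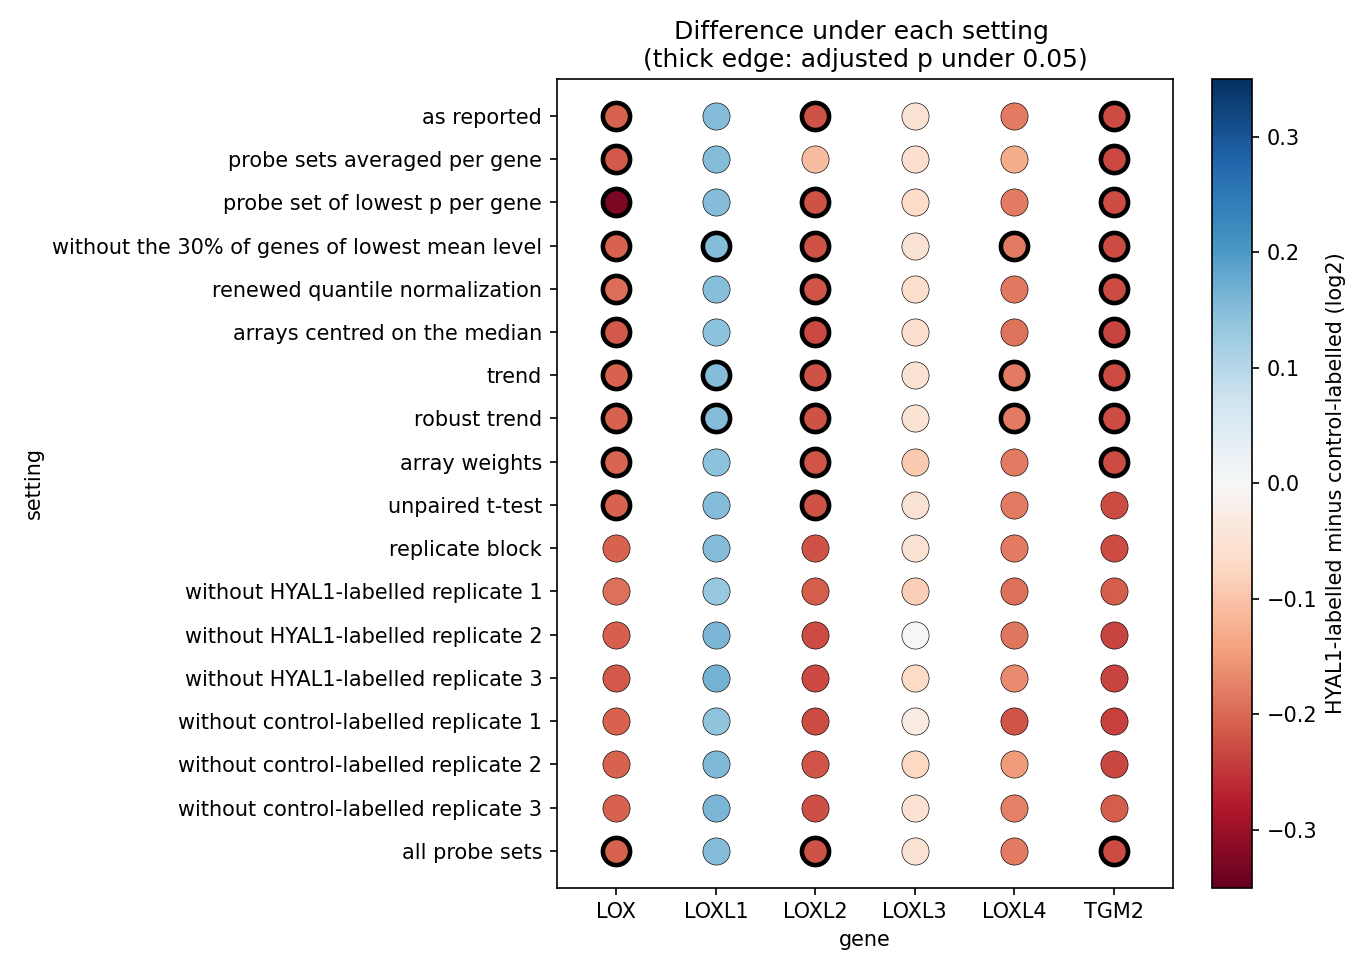
Difference of HYAL1-labelled minus control-labelled arrays for each gene (columns) as reported and under each of 17 other settings (rows), as colour on a log2 scale, with a thick edge where the adjusted p was under 0.05. Only LOXL3 changes sign, LOX deepens to -0.33 with the probe set of lowest p, LOXL2 pales to -0.11 with probe sets averaged, and the thick edges disappear in the rows that leave out an array or pair arrays by number.

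The genes whose values most resembled those of each enzyme across the 6 arrays were found by Pearson's r among all genes. As the arrays form 2 groups, a high r mainly reflects a group difference for the enzymes whose groups were apart, and it is given as a description. LOXL3 is the exception, as its groups overlapped and its nearest genes ZNF23, IL19 and KDM5B differed by only -0.05, -0.03 and -0.04. Closest to LOX were the phosphate transporter SLC20A2, the asparagine synthetase ASNS and LOXL2 (r of 0.997 to 0.998). Closest to LOXL2 were ASNS, the type IV collagen chain COL4A2 and the heparan sulfatase SULF1 (0.997 to 0.999), and closest to TGM2 were SMIM13, GAS6, a ligand of TAM receptors, and USP53 (0.998 to 1.000). LOXL4 lay nearest to SCRN1, VLDLR and DOP1A (0.991 to 0.998), LOXL1 to NASP, ADCY3 and BTN3A1 (0.994 to 0.999), and LOXL3 to ZNF23, IL19 and KDM5B (0.965 to 0.981).

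The substrates of the enzymes were examined next. Of 11 collagen and elastin genes, 2 were called lower in the HYAL1-labelled arrays and none higher (18.2% called), and the list median was -0.09. Among all genes 1.21% were called lower and 0.445% higher, the shares to set beside the calls of every list below. The lists were written with earlier results of these data known, so a larger share describes a list and is not a test of it. At an unadjusted p under 0.05, which 7.72% of all genes passed as lower and 9.69% as higher in the HYAL1-labelled arrays, 6 of the 11 were lower and 0 higher. COL11A1, a minor fibrillar chain, averaged 9.31 ± 0.0347 in HYAL1-labelled arrays and 9.63 ± 0.0196 in control-labelled arrays (difference -0.32, adjusted p = 0.0107 from limma). COL1A1, the main chain of type I collagen, averaged 11.49 ± 0.0157 in HYAL1-labelled arrays and 11.76 ± 0.0369 in control-labelled arrays (difference -0.27, adjusted p = 0.0152 from limma). The basement membrane chains COL4A1 and COL4A2 stood at -0.15 each and missed the threshold (adjusted p = 0.0713 and 0.0565 from limma). ELN, the elastin gene, which was picked out after its value was seen, stood at 0.09. Of 16 genes of elastic fibre assembly none was called (4 lower and 2 higher at an unadjusted p under 0.05, against 7.72% and 9.69% of all genes), with EFEMP1 at -0.17, LTBP1 at -0.15, MFAP5, read below the background, at -0.18 and FBN2 at -0.11, and the median was -0.03.

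Lysyl hydroxylases prepare some of the lysines on which the oxidases act, and they work beside prolyl hydroxylases and chaperones of collagen folding. Of 18 such genes, 1 was called lower and none higher (5.56% called), while 11 were lower at an unadjusted p under 0.05 and 0 higher (against 7.72% and 9.69% of all genes), and the median was -0.11. The gene called was P3H2, a prolyl 3-hydroxylase, at 9.56 ± 0.0414 in the HYAL1-labelled arrays and 10.04 ± 0.0736 in the control-labelled arrays (difference -0.48, adjusted p = 0.00844 from limma). Its relatives P3H1 and P3H4 stood at -0.17 and -0.13 and the prolyl isomerase FKBP14 at -0.16. The lysyl hydroxylase PLOD2, whose product marks telopeptide lysines, stood at -0.16 (adjusted p = 0.183 from limma). PLOD1 and PLOD3, the other lysyl hydroxylases listed, were picked out after their values were seen and stood at -0.09 and -0.02.

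Among 14 genes that activate lysyl oxidases or supply copper, none was called (2 lower and 2 higher at an unadjusted p under 0.05, against 7.72% and 9.69% of all genes), and the median was -0.02. POSTN, the matricellular protein periostin, which helps to bring BMP1 to the LOX precursor, stood at 0.15 (adjusted p = 0.0617 from limma), PCOLCE, an enhancer of procollagen cleavage, at 0.12, and the copper transporters SLC31A1 and SLC31A2 at -0.12 and -0.13. The other genes of the transglutaminase family were read below the background median, 0 of 7 being above it on all arrays. None was called (0 at an unadjusted p under 0.05), with differences of 0.16 for EPB42, 0.09 for TGM5, 0.04 for TGM1 and 0.02 for TGM6. Of 20 partners and substrates of TGM2 none was called (4 lower and 1 higher at an unadjusted p under 0.05, set against the same shares), with the syndecans SDC2 at -0.17 and SDC4 at -0.10, MFGE8 at -0.11 and SPP1, read below the background, at 0.11.

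**Figure D4:**
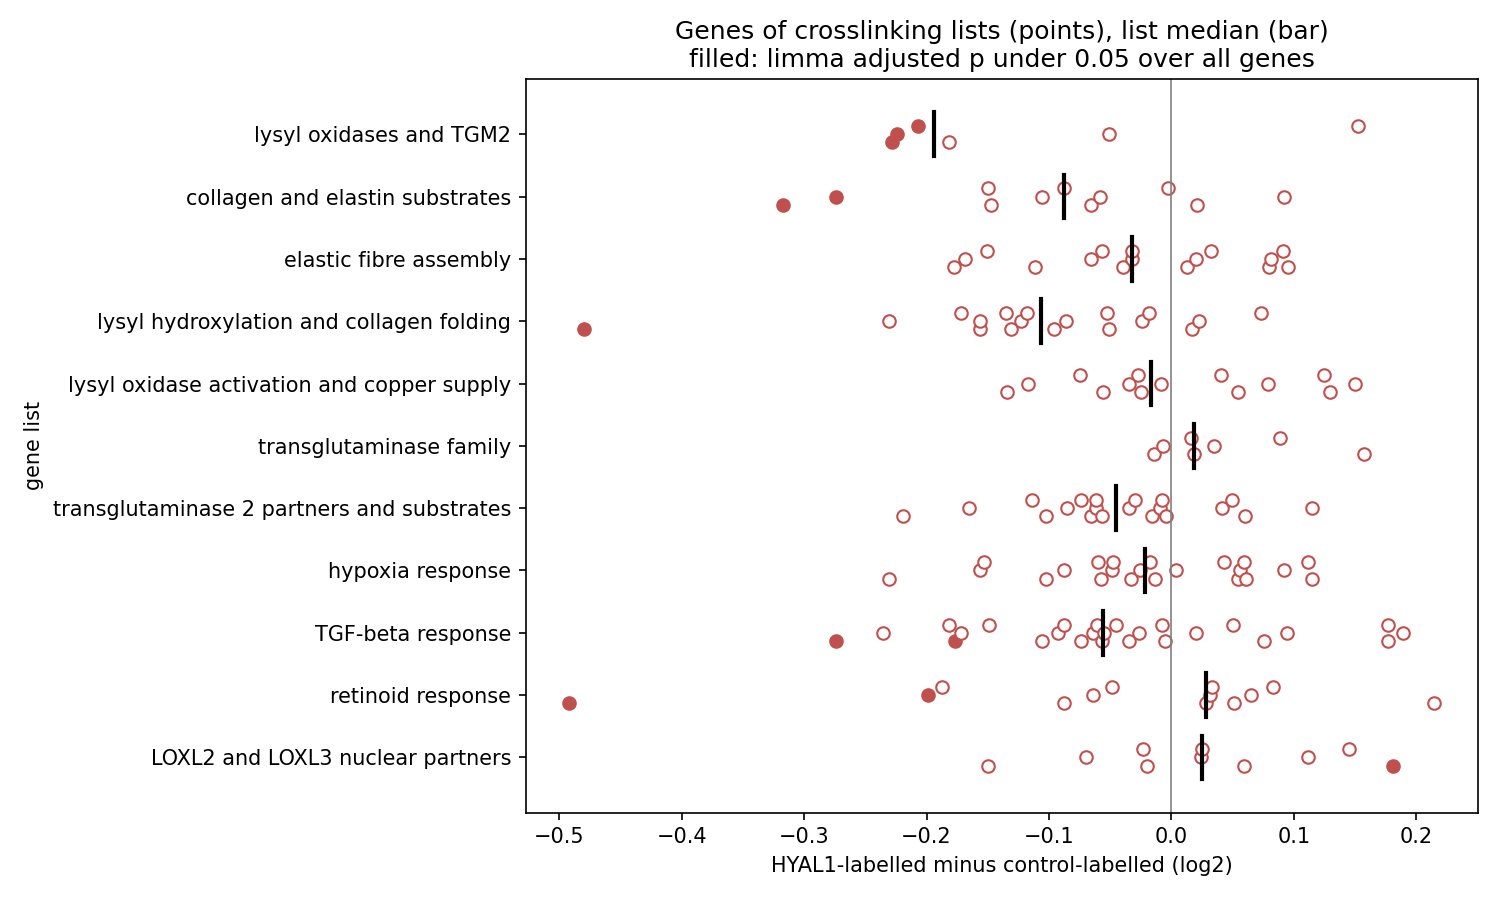
Difference of HYAL1-labelled minus control-labelled arrays on the log2 scale for each gene of the lists (points, rows), with the list median as a black bar and filled points for an adjusted p under 0.05 over all genes. The top row holds the 6 enzymes with a median of -0.19; the medians of the other lists drawn, which leave out the cell type markers, lie between -0.11 and 0.03, and their filled points are COL11A1, COL1A1, P3H2, CCN1, GPRC5A, DHRS3 and TWIST1.

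Signals known to raise these enzymes in fibroblasts or other cells were looked at through lists of their target genes. Of 26 measured genes that respond to TGFβ, 2 were called lower and none higher (7.69% called), namely COL1A1 and CCN1, a matricellular protein, at -0.18 (adjusted p = 0.0379 from limma), and the list median was -0.06. At an unadjusted p under 0.05, 10 were lower and 4 higher (against 7.72% and 9.69% of all genes). The lists share genes, so their counts are not independent. Of the 10 lower genes, COL1A1, COL1A2 and COL3A1 were also counted among the substrates and the fibroblast markers, and ACTA2 and TAGLN among the smooth muscle markers. The cytokine IL11 stood at -0.18 and CCN2 at -0.17, and neither passed (adjusted p = 0.0595 and 0.0598 from limma). The 4 higher genes, picked out after their values were seen, were BHLHE40 at 0.19, PMEPA1 and SKIL at 0.18 each and TGFB1I1 at 0.08, of which BHLHE40 and SKIL read below the background and none passed after adjustment. Of 22 genes that respond to hypoxia, the condition linked to the ACGTG core printed for LOX, none was called (5 lower and 2 higher at an unadjusted p under 0.05, against 7.72% and 9.69% of all genes), and the median was -0.02. P4HA1 stood at -0.23 (adjusted p = 0.115 from limma), KDM3A at 0.11 and ANKRD37, read below the background, at -0.10. P4HA1 and PLOD2, counted here as lower, were also counted under collagen folding. Of 13 genes of the retinoid response, 2 were called lower and none higher (15.4% called, against 1.21% and 0.445% of all genes). This list, like the others, was written with earlier results of these data known, so the share is a description. At an unadjusted p under 0.05, 3 were lower and 1 higher (against 7.72% and 9.69% of all genes). The median was 0.03, and only 6 of the 13 read above the background on all arrays. The 2 called were GPRC5A, a receptor induced by retinoic acid, at -0.49 (adjusted p = 0.00374 from limma), and DHRS3, a retinaldehyde reductase, at -0.20 (adjusted p = 0.0370 from limma). RDH10 stood at -0.19 and PLAAT4, read below the background, at 0.21.

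LOXL2 and LOXL3 are also known to act in the nucleus beside SNAI1. Of 10 genes listed for this role, TWIST1, a basic helix-loop-helix factor, was called higher in the HYAL1-labelled arrays at 0.18 (adjusted p = 0.0383 from limma). None was called lower (10.0% called, against 0.445% higher and 1.21% lower among all genes). At an unadjusted p under 0.05, 1 was lower and 3 higher (against 7.72% and 9.69% of all genes). SNAI2 stood at 0.15, TAF10 at 0.11 and KRT18 at -0.15. The list median was 0.02 and turned to -0.02 with probe sets averaged per gene.

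Other differences moved with the same arrays. Of the 8 smooth muscle markers, MYOCD and CNN1 were called lower in the HYAL1-labelled arrays, at -0.34 and -0.37 (adjusted p = 0.0226 and 0.0276 from limma). None was called higher, and of all genes 1.21% were called lower and 0.445% higher. At an unadjusted p under 0.05, 5 were lower and 1 higher (against 7.72% and 9.69% of all genes). ACTG2 at -0.17 and ACTA2 at -0.24 did not pass (adjusted p = 0.0518 and 0.0764 from limma). MYOCD read below the background in all HYAL1-labelled arrays, so its difference is not exact, and MYH11, picked out after its value was seen and below the background throughout, stood at 0.19. The list median was -0.13, and its mean level ran from 9.09 to 9.12 in HYAL1-labelled arrays and from 9.20 to 9.25 in control-labelled arrays. For the 12 fibroblast markers the mean level ran from 11.49 to 11.50 in HYAL1-labelled arrays and from 11.55 to 11.59 in control-labelled arrays. COL1A1 alone was called, while 7 were lower and 0 higher at an unadjusted p under 0.05 (against 7.72% and 9.69% of all genes). The part of either set of markers in the differences of LOX, LOXL2 and TGM2 was not tested. The gap between 3′ and 5′ probe sets, a sign of RNA quality, overlapped between the groups for GAPDH (-0.10 to -0.08 in HYAL1-labelled arrays and -0.11 to -0.07 in control-labelled arrays) and for actin (0.08 to 0.13 in HYAL1-labelled arrays and 0.11 to 0.16 in control-labelled arrays). Of the 9 listed genes called, GPRC5A passed with each array left out, P3H2 missed the threshold without control-labelled replicate 3 (adjusted p = 0.0561 from limma), COL11A1 passed in 3 of 6 such fits, COL1A1 and CNN1 in 1, and CCN1, DHRS3, TWIST1 and MYOCD in 0.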

How the data were processed

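The deposited values are on a log2 scale and come from the authors' RMA run. Affymetrix Power Tools is the software listed in the submitters' notes, its version not given in the sources used here. RMA draws the arrays to 1 distribution, so a change shared by all transcripts cannot be seen. Precision is limited by the number of arrays. Of 39341 probe sets on 6 arrays, 36097 have 1 gene symbol, 1397 several and 1847 none. Each gene was read by its single-symbol probe set of highest mean, with HYAL1 added by its values in the supplementary table (tolerance 0.001). A linear model with empirical Bayes moderation (limma 3.58.1, R 4.3.3) was fitted to the 15277 genes (prior degrees of freedom 3.25, two-sided), with Benjamini-Hochberg adjustment over all genes and a threshold of 0.05. Single values were compared by exact permutation tests over arrays. The fit was tested on simulated data. The genes, lists and tests were chosen with earlier results of these data known. Named genes are the 6 enzymes, HYAL1, up to 4 genes of lowest p and all called genes per list, and the 3 genes nearest to each enzyme. The alternatives changed how a gene's probe set was picked, removed the dimmest 30% of genes, repeated the normalization or centring, changed the variance prior, weighted arrays, used the unpaired t-test of the figure legends, paired arrays by number or dropped 1 array at a time. Promoter sequences came from RefSeq, and Python 3.11.15 with matplotlib 3.10.9 drew the figures.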

Additional observations from a re-analysis of the deposited data

How the results depend on the processing

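The number of genes called, 253 of 15277, depended on the setting. It was 729 by the probe set of lowest p, 1024 with the trend, 1079 with the robust trend, 406 with array weights and 90 with the unpaired t-test. With the replicate block it was 1, and with 1 array left out 15 to 52. Once the dimmest 30% of genes were removed, 673 of 10694 genes were called. The fit over all probe sets called 560 of 39341, a count of probe sets and not of genes. Of the 6 enzymes, 3 were called as reported, 5 with the trend, the robust trend or the low-level filter, 0 with the replicate block and 0 with any array left out. LOXL1 (0.15) and LOXL4 (-0.18) passed in those 3 settings. LOX reached -0.33 by the probe set of lowest p. That setting picks each gene's probe set by its own p on these arrays, so a larger count of calls is built into it. LOXL2 missed the threshold with probe sets averaged (-0.11) and TGM2 with the unpaired t-test (-0.23, adjusted p = 0.0639). With arrays paired by replicate number, LOX (-0.21), LOXL2 (-0.22) and TGM2 (-0.23) missed it, the last 2 at an adjusted p of 0.0945 from limma. The 9 listed genes called in the report also missed it there, as did P3H2, DHRS3, TWIST1, MYOCD and CNN1 with the unpaired t-test and MYOCD with probe sets averaged. Same-numbered arrays shared deviations with r = 0.0629, -0.0229 and 0.235, so the numbers are not known to pair them. With 1 array left out LOX ranged from -0.22 to -0.19, LOXL2 from -0.23 to -0.21 and TGM2 from -0.24 to -0.21. LOXL3 ranged from -0.0874 to 0.0031 and changed sign without HYAL1-labelled replicate 2, so it has no settled direction. No other difference of the 6 enzymes changed sign in any of the 17 alternatives. Apart from the design of each alternative (fewer arrays, fewer genes, a probe set picked by its own p), the cause of these changes was not tested.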
